A study of Mus musculus with 33 samples.

Results

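The 10 genes described here, Sox1, Pax6, Lhx2, Pax3, Nes, Map2, Tubb3, Ncan, Ptprz1 and Miat, are grouped under the label early neural genes. The label is a name for genes used in neural tissue, and does not show that the cells measured here were becoming neural. They were picked by name from a table of 24391 genes, and all 10 were found in it. An earlier pass over the same libraries had named most of them as lower in RepB cells over days 5 to 10, and had named Nes and Tubb3 as abundant neural genes without such a difference. The contrast of RepB with WT therefore chose the members. For them it is given below as a description, and counts of calls from the fits are printed beside those of all genes without being read as a test.

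RNA was measured by polyA sequencing in 12 libraries from embryonic stem (ES) cells of the mouse, which are pluripotent cells that can form every tissue of the embryo. The RepB libraries came from cells labelled with a genotype named after Repeat B of Xist, the noncoding RNA that silences an X chromosome in female cells, and the WT libraries came from wildtype cells. All cells derived from CAST/Ei x 129/Sv/Jae crosses, were kept on irradiated feeder fibroblasts with LIF at day 0, and were differentiated in serum as embryoid bodies that were later plated on gelatin. Each line gave 1 library at each of days 0, 5, 6, 7, 8 and 10. The labels give 1 source per genotype and do not describe the edit or the allele that carries it, so a difference between RepB and WT cannot be told apart from a difference between these lines or cultures.

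Sox1, Pax6, Lhx2 and Pax3 encode transcription factors of the developing nervous system. Sox1 is among the earliest genes of the neural plate, Pax6 acts in the forebrain, eye and spinal cord, Lhx2 is a LIM homeobox factor of the forebrain and eye field, and Pax3 acts in the dorsal neural tube, the neural crest and also in somites. Nes encodes nestin, an intermediate filament protein of neural progenitors that endothelial and muscle precursors make too, while Map2 and Tubb3 encode a microtubule-associated protein and a tubulin of neurons. Ncan encodes the matrix proteoglycan neurocan, Ptprz1 encodes a receptor phosphatase of radial glia, and Miat is a long noncoding RNA of pluripotent and neural cells.

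RepB libraries of days 5 to 10 held 3594551 to 6977752 counts, and WT libraries of those days held 7763633 to 17773138 counts. On the same day the WT library was 2.07 to 3.35 times as deep. Values are given in CPM, which divides each count by the size of its library, adjusted by the trimmed mean of M values (TMM). A count of 3 in a library corresponded to 0.165 to 0.878 CPM and is used as the floor below which no level is read. Over days 5 to 10, 11 of 50 RepB values of the 10 genes lay below that floor, against 1 of 50 WT values. Xist itself stood at 106 CPM in RepB and 366 CPM in WT at day 0, and at 1171 to 1644 CPM in RepB and 810 to 1409 CPM in WT over days 5 to 10, but counts over the whole gene do not check an edit of Repeat B. In bulk RNA, fewer cells of a type and less RNA per cell cannot be told apart.

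The table places Sox1, Tubb3 and Ncan on chromosome 8, Pax6 and Lhx2 on chromosome 2, Pax3 and Map2 on chromosome 1, Nes on chromosome 3, Miat on chromosome 5 and Ptprz1 on chromosome 6, in mm9. None of the 10 is X-linked. Sox1 is listed as a single interval, chr8:12395519-12399555 on the plus strand, whose 4037 bases equal its summed exon length. Promoter sequence for 9 of the 10 genes, with 11 transcription starts, was taken from RefSeq (GRCm38.p6). In the 250 bases upstream of the start, the 11 promoters held a median of 22 CG dinucleotides, the sites of DNA methylation in mammals, against a median of 6 over all 32851 promoters in the table. At least 15 CG were present in 10 of the 11, against 27.3% of all promoters, and Ncan, with 6, was the exception. The cutoff of 15 equals the lowest count among those 10, and Pax6 and Lhx2 enter with 2 starts each. This share is therefore a description and not a test.

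A set of 5 short motifs was searched on both strands of the same windows. CATTGT, a SOX-type motif, was present in 1 of 11 promoters (Tubb3, at 2 places) against 10.7% of all promoters. CAGCTG, an E-box, was present in 1 of 11 (Ncan) against 13%, and TATAAA in 1 of 11 (Ncan) against 12.4%. TAATTA, a homeodomain-type motif, was present in 0 of 11 against 4.84%, and the octamer ATGCAAAT in 0 of 11 against 1.6%. No motif contains another. A match describes letters in the window and is not a measured binding site.

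The sequences of 4 promoters are printed 5′ to 3′ with each CG in capitals, to set a transcription factor gene with a large difference between the lines (Sox1), the member most like it in course (Pax6), a neuronal gene without such a difference (Tubb3) and the CG-poor exception (Ncan) side by side. They lie at chr8:12395269-12395518 on the plus strand for Sox1, chr2:105668646-105668895 on the plus strand for the upstream start of Pax6, chr8:123411303-123411552 on the plus strand for Tubb3 and chr8:70120845-70121094 on the minus strand for Ncan. They hold 29, 15, 21 and 6 CG in that order.
Sox1: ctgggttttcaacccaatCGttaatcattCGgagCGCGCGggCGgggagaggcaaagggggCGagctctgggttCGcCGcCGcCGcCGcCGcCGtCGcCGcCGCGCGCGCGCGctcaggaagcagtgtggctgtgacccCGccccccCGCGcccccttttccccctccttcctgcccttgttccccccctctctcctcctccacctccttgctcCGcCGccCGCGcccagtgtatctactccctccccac
Pax6: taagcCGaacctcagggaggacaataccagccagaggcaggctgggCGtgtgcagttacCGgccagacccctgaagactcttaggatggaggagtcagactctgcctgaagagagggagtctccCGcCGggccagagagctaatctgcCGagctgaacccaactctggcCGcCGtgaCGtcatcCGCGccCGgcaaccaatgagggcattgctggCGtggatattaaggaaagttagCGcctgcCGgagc
Tubb3: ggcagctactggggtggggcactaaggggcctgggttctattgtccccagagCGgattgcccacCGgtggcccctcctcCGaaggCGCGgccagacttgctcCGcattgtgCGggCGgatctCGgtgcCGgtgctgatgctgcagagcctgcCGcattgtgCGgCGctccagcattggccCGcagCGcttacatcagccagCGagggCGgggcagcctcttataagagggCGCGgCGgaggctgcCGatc
Ncan: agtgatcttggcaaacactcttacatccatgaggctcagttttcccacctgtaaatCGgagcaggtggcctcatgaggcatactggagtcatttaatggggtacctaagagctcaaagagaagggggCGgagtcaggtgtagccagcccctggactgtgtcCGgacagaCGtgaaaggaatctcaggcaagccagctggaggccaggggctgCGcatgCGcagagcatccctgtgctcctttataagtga

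Among the transcription factors of the set, Sox1 had the largest mean log2 difference between the lines on the CPM + 0.5 scale, while Pax3, with very few counts, had the larger pooled ratio. In RepB cells it stood at 6.29, 1.70, 2.10, 1.15, 0.293 and 1.64 CPM at days 0, 5, 6, 7, 8 and 10, and in WT cells at 3.91, 3.87, 9.31, 16.5, 16.7 and 7.15 CPM. RepB was the higher line at day 0 and the lower one on every later day. From day 5 on, the highest RepB value (2.10 CPM) lay below the lowest WT value (3.87 CPM). The RepB values of those days rested on 36 counts in all and the WT values on 588, which gives a pooled WT level 6.35 times that of RepB (exact 95% interval 4.53 to 9.16, counting error only). Here and below, a pooled level sums the counts of the 5 days and does not pair the lines by day. Deeper libraries weigh more in it, so the weight of each day differs between the lines. The log2 RepB/WT of CPM + 0.5 averaged -2.51 ± 1.38 over the 5 days (SD, n = 5 days).

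Pax6 had 3.79, 3.98, 1.12, 1.15, 0.293 and 0.822 CPM in RepB cells at the same days, and 3.47, 6.30, 3.38, 3.65, 7.52 and 8.36 CPM in WT cells. The lines were alike at day 0, both held several CPM at day 5, and the RepB values were near or below their floor at days 8 and 10, where the WT values were highest. The pooled WT level was 3.53 times that of RepB (2.52 to 5.07), on 38 RepB and 345 WT counts. Because the RepB value of day 5 exceeded the WT values of days 6 and 7, the ranges overlapped.

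Lhx2 was alike in the lines at day 5 and lower in RepB from day 6 on. RepB libraries had 3.72, 0.947, 0.419, 0.461, 1.46 and 4.38 CPM, against 2.43, 0.885, 1.24, 5.20, 8.92 and 14.8 CPM in WT libraries. Both lines were lowest near day 5 or 6 and highest at day 10, and RepB was the lower line on 4 of 5 days. The pooled WT level was 3.86 times that of RepB (2.67 to 5.78), on 31 RepB and 308 WT counts.

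Pax3 was the least abundant member. It had 0.193, 0, 0.14, 0.461, 0 and 0.274 CPM in RepB cells, and 0.386, 0.111, 0.207, 1.55, 4.46 and 3.02 CPM in WT cells. All 5 differentiating RepB libraries were below the floor, with 4 counts among them, against 87 counts in WT, nearly all from days 7, 8 and 10. The pooled ratio of WT to RepB was 8.46 with an exact interval of 3.19 to 31.7.

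**Figure D1:**
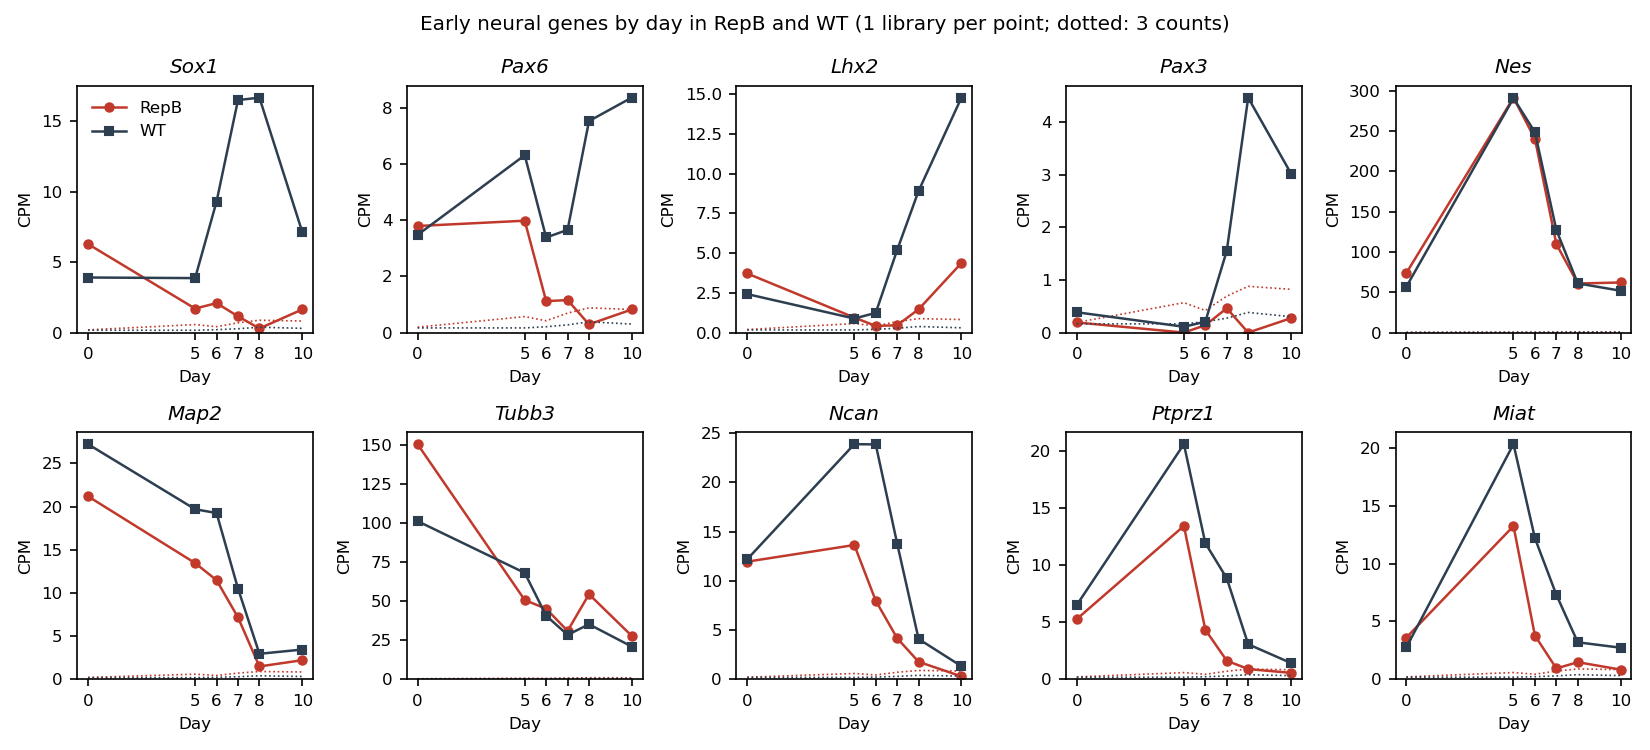
CPM of each of the 10 genes by day in RepB (red circles) and WT (dark squares), 1 library per point, with dotted lines at the level of 3 counts in each library. Sox1 reached 16.7 CPM in WT and not more than 2.10 CPM in RepB from day 5 on, while the Nes curves of the lines lie close together.

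Nes was abundant and alike in the lines. It had 74.0, 291, 240, 110, 60.9 and 62.2 CPM in RepB cells, and 56.9, 291, 249, 127, 61.0 and 51.9 CPM in WT cells. Both lines were highest at day 5, at 3.94 times their day 0 level in RepB and 5.11 times in WT, and returned to about the day 0 level by day 8. The mean log2 RepB/WT was -0.00 ± 0.17 over the 5 days. The pooled WT level was 1.05 times that of RepB (1.01 to 1.09). That ratio weighs the days by depth, unlike the same-day mean, so no difference between the lines is read from its interval.

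The neuronal cytoskeleton genes were highest at day 0, when the cells were kept on feeder fibroblasts. Summed fibroblast and feeder markers were 801 CPM in RepB and 673 CPM in WT at day 0, against 55.3 and 68.1 CPM at day 5. They then rose to 3068 CPM in RepB and 1353 CPM in WT at day 8, and were higher still at day 10. The sum is therefore no measure of feeder cells alone. The part of feeder RNA in the day 0 levels, and so in any comparison with day 0, was not tested. Tubb3 had 151, 50.7, 45.1, 30.9, 54.5 and 27.7 CPM in RepB cells, and 101, 68.2, 40.7, 28.4, 35.2 and 20.8 CPM in WT cells. RepB was higher on 4 of the 5 later days and at day 0, and the ranges overlapped (mean log2 RepB/WT 0.17 ± 0.39). Map2 had 21.2, 13.4, 11.5, 7.15, 1.46 and 2.19 CPM in RepB cells, and 27.2, 19.7, 19.2, 10.5, 2.93 and 3.42 CPM in WT cells. Its difference was small and even: log2 RepB/WT was between -0.80 and -0.52 on each of days 5 to 10, with a mean of -0.63 ± 0.13, and was -0.35 at day 0.

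Ncan, Ptprz1 and Miat shared a course that was highest at day 5 in both lines. Ncan had 11.9, 13.6, 7.97, 4.15, 1.76 and 0.274 CPM in RepB cells, and 12.2, 23.9, 23.9, 13.8, 4.08 and 1.31 CPM in WT cells. Ptprz1 had 5.26, 13.4, 4.33, 1.62, 0.878 and 0.548 CPM in RepB cells, and 6.50, 20.6, 11.9, 8.85, 3.06 and 1.41 CPM in WT cells. For both genes the lines were close at day 0, RepB was lower on all 5 later days, and the ranges overlapped because levels changed over the days in both lines. Miat had 3.60, 13.3, 3.77, 0.923, 1.46 and 0.822 CPM in RepB cells, and 2.76, 20.4, 12.2, 7.30, 3.19 and 2.72 CPM in WT cells. In RepB the day 5 level was 3.51 times the day 6 level for Miat and 3.10 times for Ptprz1, against 1.67 and 1.73 times in WT. Mean log2 RepB/WT over days 5 to 10 was -1.24 ± 0.35 for Ncan, -1.27 ± 0.59 for Ptprz1 and -1.36 ± 0.71 for Miat.

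By day, the median log2 RepB/WT of the 10 genes was 0.22 at day 0, then -0.57, -1.09, -1.47, -1.19 and -1.25 at days 5, 6, 7, 8 and 10. RepB was lower on all 5 differentiating days for 7 of the 10 genes, a pattern that 7.96% of the 15179 genes tested had. Only Sox1 had no overlap between its RepB and WT values, a pattern of 0.27% of those genes. In the edgeR quasi-likelihood fit across all genes, 8 of the 10 members were lower in RepB over days 5 to 10, as were 0.771% of all genes tested. Since the members were chosen by this contrast, nothing is read from these counts. Leaving out a day moved the 8 to between 0 and 7: it was 0 without day 7, 2 without day 10 and 3 without day 6. It was 5 after all libraries were thinned to the same depth, and 6 by DESeq2 and by limma-voom.

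**Figure D2:**
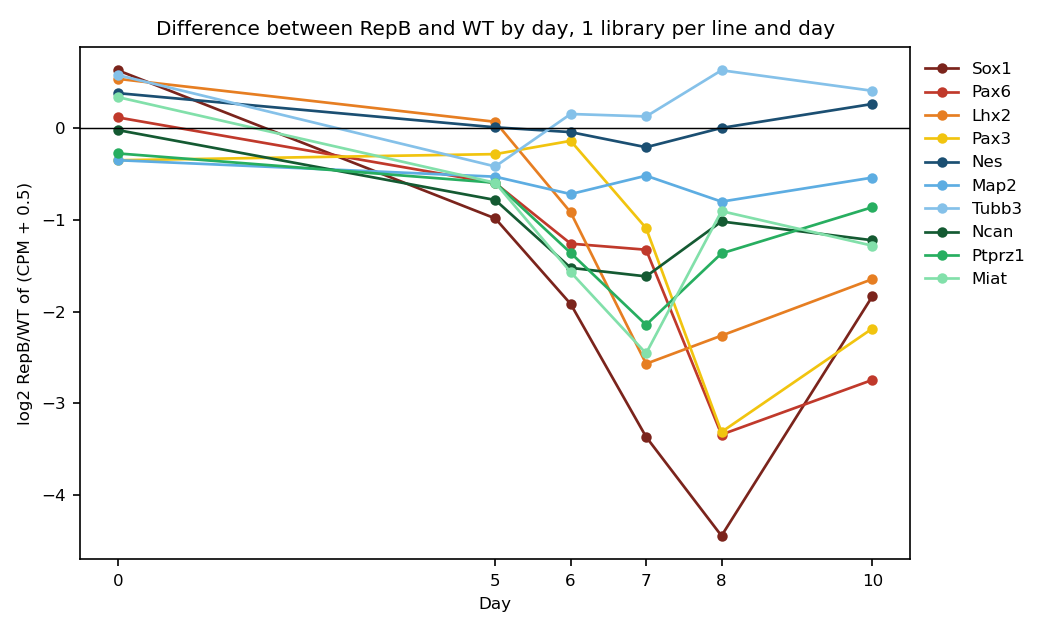
Log2 RepB/WT of CPM + 0.5 by day for each of the 10 genes, 1 library per line and day. The line for Nes stays between -0.21 and 0.37, that for Tubb3 lies on both sides of 0, Map2 runs below 0 throughout, and Sox1 reaches -4.44 at day 8.

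Levels can be compared between genes only per length, so CPM was divided by the summed exon length in kb. By the geometric mean over days 5 to 10, the order in RepB was Tubb3, Nes, Map2, Ncan, Lhx2, Sox1, Ptprz1, Miat, Pax6 and Pax3, and in WT it was Tubb3, Nes, Sox1, Map2, Lhx2, Ncan, Pax6, Miat, Ptprz1 and Pax3. Tubb3 and Nes averaged 24.3 ± 6.93 and 24.97 ± 17.4 CPM per kb in RepB, against 22.4 ± 10.5 and 25.5 ± 17.8 in WT (SD, n = 5 days), and these neighbours overlapped in both lines. A gap followed. The lowest Nes value, 9.94 CPM per kb in RepB and 8.48 in WT, exceeded every value of the other 8 genes, of which the highest were 2.44 in RepB (Map2) and 5.25 in WT (Lhx2). All other neighbours in either order had overlapping ranges over the days. By this mean Sox1 was the member whose rank differed most, at 6 in RepB with 0.341 ± 0.172 CPM per kb and 3 in WT with 2.65 ± 1.42 CPM per kb. By the median over days it was at 5 in RepB and 3 in WT, and Map2 differed by as many ranks.

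**Figure D3:**
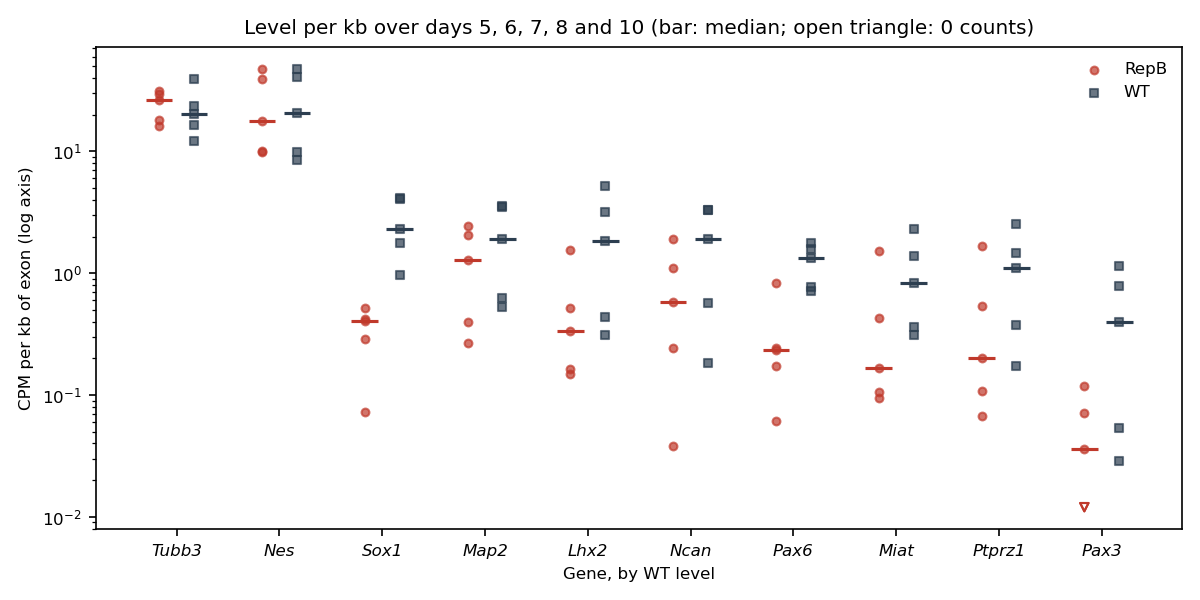
CPM per kb of exon on a log axis for each gene over days 5, 6, 7, 8 and 10, with RepB at the left (red) and WT at the right (dark) of each pair and bars at the medians. Tubb3 and Nes lie above the other 8 genes in both lines, and the RepB and WT points of Sox1 do not overlap.

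The change since day 0 was not itself the contrast that chose the members, although it shares their values of days 5 to 10, and was tested in each line with edgeR, where the differences among days 5 to 10 count as spread. No member was called in either line: 0 of 10 in RepB, against 4.78% of all genes tested, and 0 of 10 in WT, against 10% of all genes. At an unadjusted p under 0.05 there were 2 of 10 in RepB (Sox1 and Tubb3, both negative), against 22% of all genes, and 1 of 10 in WT (Tubb3, negative), against 27.4%. Tubb3 had a log2 difference of -1.87 ± 0.47 (SE, edgeR adjusted p = 0.051) in RepB and -1.42 ± 0.48 (adjusted p = 0.0896) in WT. DESeq2 and limma-voom each called it in RepB, and limma-voom called it in WT. Sox1 had -2.16 ± 0.73 (edgeR adjusted p = 0.118) in RepB and 1.42 ± 0.90 (adjusted p = 0.334) in WT, and neither passed. When the day terms were shared by the lines, so that the spread between days no longer counted as error, 7 of 10 members were called in RepB, against 47.5% of all genes, and 5 of 10 in WT, against 55%.

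Within days 5 to 10 a straight line per day was fitted in each line. Pax3 did not pass the count filter of that fit, so 9 members were tested. In RepB, Lhx2 rose and Nes, Map2, Ncan, Ptprz1 and Miat fell, which is 6 of 9 against 36% of all 12948 genes tested. In WT, Lhx2 rose and the same 5 genes and Tubb3 fell, which is 7 of 9 against 34%. Lhx2 rose by 0.61 ± 0.19 log2 per day in RepB (SE, edgeR adjusted p = 0.0296) and by 0.87 ± 0.15 in WT (adjusted p = 0.00312). Its RepB call was lost without day 6 (adjusted p = 0.0972) and by limma-voom (0.068), and it did not pass the count filter without day 10 or after thinning, so the call could not be checked there. Sox1 had slopes of -0.11 ± 0.26 in RepB and 0.17 ± 0.21 in WT and Pax6 -0.55 ± 0.22 and 0.16 ± 0.13, and none of these passed. Without day 10, where the WT level of Sox1 was below those of days 6 to 8, its WT slope was 0.72 and passed (adjusted p = 0.0235).

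Ptprz1 and Ncan, the receptor and matrix genes, had the steepest fitted declines in both lines. Ptprz1 fell by 1.10 ± 0.14 log2 per day in RepB (edgeR adjusted p = 0.000821) and by 0.79 ± 0.10 in WT (0.000886). Ncan fell by 1.01 ± 0.14 in RepB (0.00118) and by 0.90 ± 0.11 in WT (0.000753). Miat fell by 0.93 ± 0.18 in RepB (0.00502) and by 0.61 ± 0.13 in WT (0.00816), and its RepB call was lost without day 5 (slope -0.55, adjusted p = 0.123). Nes fell by 0.48 ± 0.10 in RepB and 0.54 ± 0.10 in WT, and Map2 by 0.62 ± 0.17 and 0.59 ± 0.14. The RepB call of Map2 was lost without day 5, 6 or 10, and the WT call of Tubb3 (-0.29 ± 0.08, adjusted p = 0.0212) was lost without day 5, 6 or 10 and after thinning.

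The difference of the slopes was tested in the same fit. It was called for 0 of 9 members and for 0 of all genes (0%) by edgeR, and for 0 members by DESeq2 and by limma-voom. At an unadjusted p under 0.05 edgeR had 1 member, Pax6, with a slope difference of -0.71 ± 0.26 log2 per day (unadjusted p = 0.0204, adjusted p = 1.00), and 200 of all genes. A p that misses the threshold does not show that the slopes were the same.

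**Figure D4:**
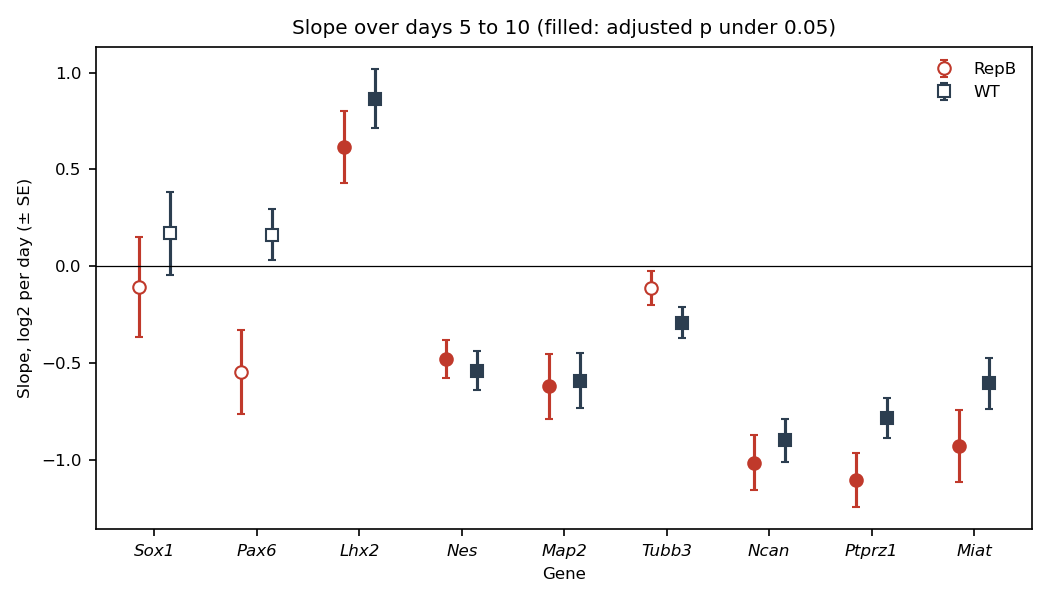
Slope over days 5 to 10 in log2 per day with its SE for the 9 members tested, RepB (red circles) at the left and WT (dark squares) at the right of each pair, filled where the edgeR adjusted p was under 0.05. Lhx2 lies above 0 in both lines, and Ptprz1 and Ncan lie lowest.

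The members fell into groups by their course over the 12 libraries, as described by Pearson's r of log2(CPM + 0.5). Ncan and Ptprz1 had r = 0.95, Miat and Ptprz1 0.93, Lhx2 and Pax3 0.80, and Sox1 and Pax6 0.78, while Lhx2 and Nes had -0.69. These libraries share lines, days and depth. Among 12822 genes with which each was compared, Nes was most like Foxi3 (r = 0.99), Tom1l1 (0.98) and Grm6 (0.97). Tubb3 was most like Slc12a8 (0.96), Rogdi and Rhox1 (both 0.95), and Miat was most like Gprin1 (0.97), Slitrk5 and Dtx4 (both 0.96). The nearest courses to Sox1 were less close, with Ppp1r2-ps3 (0.83), Mfi2 (0.81) and Serinc2 (0.80), and the nearest to Pax6 were Them4 (0.84), Serinc2 (0.83) and Ano8 (0.78). Mfi2 averaged 0.373 CPM in RepB and 2.95 CPM in WT over days 5 to 10.

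The label early neural was set against 10 defining markers of neural cells, 2 of which (Sox1 and Pax6) are members. Of the other 8 markers, 4 averaged below 1 CPM in both lines (Hes5, Fabp7, Dcx and Neurog2). Over days 5 to 10, Hes5, a Notch target of progenitors, averaged 0.554 ± 0.410 CPM in RepB and 0.541 ± 0.173 in WT. Fabp7, a radial glia protein, averaged 0.421 ± 0.172 and 0.605 ± 0.146 CPM in RepB and WT, and Dcx, a protein of migrating neurons, 0.581 ± 0.494 and 0.567 ± 0.322 CPM. Neurog2, a proneural factor, was at 0 counts in all 5 RepB libraries of those days and reached 0.274 CPM in WT. Stmn2 and Elavl3, neuronal genes, were abundant but highest at day 0, at 226 and 75.2 CPM in RepB and 202 and 92.0 CPM in WT. Over days 5 to 10 Stmn2 averaged 62.95 ± 29.67 CPM in RepB and 72.12 ± 31.07 CPM in WT. Elavl3 averaged 12.14 ± 10.79 CPM in RepB and 16.34 ± 14.49 CPM in WT. Rbfox3, of mature neurons, averaged 0.953 ± 0.419 CPM in RepB and 1.67 ± 1.34 CPM in WT, and had 7.83 CPM in RepB and 4.30 CPM in WT at day 0. So Sox1 and Pax6 were present in WT cells. Hes5, Fabp7, Dcx and Neurog2 were near the floor in both lines, while Stmn2 and Elavl3 were well above it.

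Beyond the members, 89 further neural genes in 4 lists were examined in the same edgeR fit of RepB against WT over days 5 to 10. These lists were drawn up with earlier results of the same libraries known. Of 80 tested, 4 were lower and 0 higher in RepB, which is 5% called, against 0.771% lower and 1.51% higher among all genes. At an unadjusted p under 0.05, 26 were lower and 6 higher, and 15% of all genes passed in either direction. DESeq2 called 4 lower and 2 higher, and limma-voom 3 lower and 0 higher. The median log2 RepB/WT of the 80 was -0.27, against -0.00 over all genes. The count filter could be met by 1 library alone, so some genes entered only through WT libraries in which they were high. Six6 and Dbx1 were at most 0.822 and 0.548 CPM in RepB, and reached 4.72 and 2.42 CPM in WT. Such genes could hardly come out as higher. Nothing is therefore read from the direction of the 26 or from the medians of these lists. Without day 7, 1 of the 4 was called, and without a day term none was.

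Among 29 tested neural transcription factors, 3 were lower, 0 were higher and the median log2 was -0.56. Six3, a forebrain and eye field homeobox gene, had 0.379, 0, 0.231, 0 and 1.92 CPM in RepB cells at days 5, 6, 7, 8 and 10, against 0.332, 0.759, 8.58, 23.7 and 12.6 CPM in WT cells. It was low in both lines at day 5 and separated from day 7 on (log2 -3.97 ± 0.58 SE, edgeR adjusted p = 0.00636, and 0.0566 without day 7). Because most RepB values were below the floor, that fitted change depends on the prior count and is no measure of size. Rax, another eye field gene, averaged 0.397 ± 0.257 CPM in RepB and 2.57 ± 1.82 CPM in WT (log2 -2.29 ± 0.54, adjusted p = 0.0499), and its call was lost in 8 of the alternatives. Sox3, an X-linked relative of Sox1, averaged 15.1 ± 9.67 CPM in RepB and 33.6 ± 23.9 CPM in WT, was lower on all 5 days (log2 -1.11 ± 0.15, adjusted p = 0.0056) and kept its call whichever day was left out. The most abundant factors of the list, Sox2 (log2 0.32, adjusted p = 0.0826), Zic2 (-0.41, 0.188) and Otx2 (-0.32, 0.292), did not pass. Sox2, which pluripotent cells make too, passed as higher in RepB by DESeq2 (adjusted p = 0.0359) and without day 8 (0.0119).

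The later neural lists showed fewer calls. Of 19 tested neuronal genes 0 were called in either direction by edgeR, DESeq2 or limma-voom, with 4 lower and 1 higher at an unadjusted p under 0.05 in edgeR and a median log2 of -0.15. Their most abundant genes were Stmn2 (log2 -0.19, edgeR adjusted p = 0.498), Tubb2b (0.06, 0.837) and Ncam1 (0.24, 0.378). Of 16 tested radial glia and matrix genes 1 was lower, with a median of -0.05. This was Prom1, which encodes the membrane protein prominin, at 37.8 ± 12.6 CPM in RepB and 54.8 ± 19.4 CPM in WT (log2 -0.52 ± 0.09, adjusted p = 0.0114, lower on all 5 days, not called without day 6 or day 7). Vcan (0.45, 0.157), Cdh2 (-0.07, 0.778) and Hes1 (-0.03, 0.957) did not pass, though Vcan, the proteoglycan versican, passed as higher by DESeq2 (0.0488), which called 1 gene of this list higher and 2 lower. Of 16 tested neural crest genes 0 were called by any of the tools, with 4 lower and 1 higher at an unadjusted p under 0.05 in edgeR and a median of -0.09, and the abundant Msx2, Msx1 and Ets1 had log2 values between -0.06 and 0.10. Whether the lists differ from each other was not tested.

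**Figure D5:**
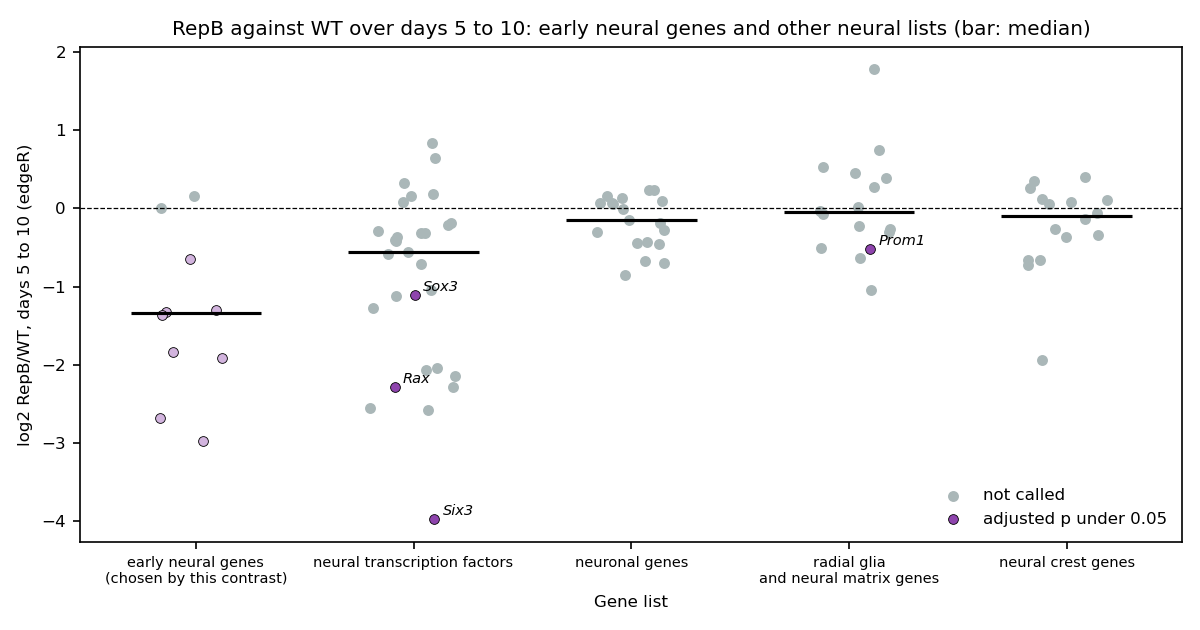
Log2 RepB/WT over days 5 to 10 from edgeR for the 10 early neural genes (left, chosen by this contrast) and for the tested genes of the other 4 neural lists, with bars at the medians. Dark points passed an adjusted p of 0.05, namely Six3, Rax, Sox3 and Prom1.

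Markers of other cells were read in the same fit of RepB against WT. Of 12 naive pluripotency genes, 8 were called higher and 0 lower in RepB over days 5 to 10 (edgeR, all 12 detected). Among all genes tested, 1.51% were called higher and 0.771% lower. At an unadjusted p under 0.05, 10 of the 12 were higher and 0 lower, and 15% of all genes passed in either direction. The summed level of the 12 was 519 to 2739 CPM in RepB and 371 to 2056 CPM in WT, higher in RepB on 5 of 5 days. At day 0 the sum was higher in RepB too, at 7054 CPM against 5951 CPM in WT. Summed endothelial markers, relevant to Nes, were 121 to 579 CPM in RepB and 102 to 436 CPM in WT. Of these 8 genes, 1 was called, Pecam1, as higher, and 5 were higher and 0 lower at an unadjusted p under 0.05. Pecam1 had 169.5 CPM in RepB and 181 CPM in WT at day 0, above all its later values. Somite and muscle markers, relevant to Pax3 and Nes, had 0 of 7 tested genes called, and 0 by DESeq2 and limma-voom. In edgeR, 1 was lower at an unadjusted p under 0.05. Their sum was 47.9 to 290 CPM in RepB and 40.5 to 454 CPM in WT. The highest sums, at day 10, came mostly from Des, Actc1, Myl7 and Tnnt2. Over days 5 to 10, Tcf15, Tbx6 and Meox1 averaged 6.885, 3.166 and 1.015 CPM in RepB. In WT they averaged 7.339, 3.808 and 1.194 CPM. Myf5, Uncx and Ripply2 were not tested. The sums therefore give no level for somite cells. Fibroblast markers had 2 of 8 called, Col3a1 and Postn, as higher, and 4 higher and 0 lower at an unadjusted p under 0.05. Surface ectoderm markers had 1 of 7 called, Tfap2c, as higher, and 1 higher and 0 lower at an unadjusted p. Tfap2c had 114 CPM in RepB and 107 CPM in WT at day 0, above all its later values. The part of these cell types in the differences of the neural genes was not tested, and neither was that of the lower depth of the RepB libraries beyond the thinned counts above.

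The authors also gave counts of reads that could be assigned to 1 parental allele, called cas and mus, taken here to stand for the CAST/Ei and 129/Sv/Jae alleles. Allelic counts were not used to choose the members. Map2, Nes, Ptprz1, Ncan and Tubb3 had enough of them for a test, and 0 of these 5 had a cas share that differed between RepB and WT over days 5 to 10 (edgeR, adjusted p = 1 for each, 0 at an unadjusted p under 0.05), against 2.24% of 10332 genes. Pooled over days 5 to 10, Tubb3 had a cas share of 14.7% (exact 95% interval 10.6 to 19.5) in RepB and 18.4% (15.6 to 21.4) in WT. Ncan had 62.2% (46.5 to 76.2) in RepB and 57.5% (51.4 to 63.4) in WT. Sox1, not tested, had 78.6% (49.2 to 95.3) of 14 counts in RepB and 75.5% (68.1 to 81.9) of 163 counts in WT, and 14 counts leave a wide interval. Miat had 48% (27.8 to 68.7) in RepB and 50.9% (43.2 to 58.5) in WT.

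Other members were read almost wholly from 1 allele. Nes had a cas share of 0.618% (0.309 to 1.10) in RepB and 0.727% (0.512 to 1.00) in WT over days 5 to 10, and 4.01% in RepB and 3.19% in WT at day 0. Map2 had 0 of 57 cas counts in RepB, where 3 counts would be 5.26% and the exact 95% interval reaches 6.27%, and 0.725% in WT. Pax6 had 0 of 58 cas counts in WT, where 3 counts would be 5.17% and the exact interval reaches 6.16%, and 0 of 5 in RepB. These low shares were common on the chromosomes concerned, whose genes had a median cas share of 0.666% on chromosome 1, 0.733% on chromosome 3 and 4.78% on chromosome 2. Ptprz1 went the other way, with 91.2% (76.3 to 98.1) in RepB and 90.1% (84.8 to 94.0) in WT, on chromosome 6, where the median gene had 0.968%.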

How the data were processed

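RNA of 12 libraries was analysed from a deposited table of counts per gene, which the authors made without normalization. Per the submitters' processing notes, Novoalign, TopHat, SAMtools, bedtools and featureCounts were used with mm9, and no versions or roles are stated. A directional kit was used, per the labels' protocols, while whether counting used strand is not given in the sources used here, so counts of genes with antisense or overlapping neighbours are uncertain. The other deposited column used is the summed exon length. A further 6 count columns had no matching sample and were not used, and 21 samples (ChIP and input) were not analysed here.

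The members and all gene lists were chosen with earlier results of these data known. Counts were tested in R 4.3.3 with edgeR 4.0.16 (TMM, filterByExpr, quasi-likelihood F test), with Benjamini-Hochberg adjustment over all genes tested at 0.05. RepB was set against WT with day as a factor (4 residual degrees of freedom), days 5 to 10 against day 0 with a mean per line and stage (8), and slopes with a straight line per line (6). Each p measures the spread over days of 1 time course per line, not over cultures. Allelic counts were tested with library terms and an allele-by-genotype term, where allelic counts averaged at least 20. Per-day differences used a pseudocount of 0.5 CPM. Alternatives were DESeq2 1.42.0, limma-voom (limma 3.58.1), DESeq2 size factors, no filter, no day term, shared day terms, thinning to equal depth, a pseudocount of 2 CPM and leaving out each day. Intervals are exact (Clopper-Pearson) and, like the floor of 3 counts, cover counting error only. The scripts were tested on simulated data. From each other list the text names every gene past the threshold (up to 5) and the 3 most abundant. For Sox1, Pax6, Nes, Tubb3 and Miat it names the 3 genes nearest in course, with a mean of at least 2 CPM. Single markers are named from the marker list, and 1 item is not reported here.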

Additional observations from a re-analysis of the deposited data

How the results depend on the processing

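Each of these values comes from 1 library per line and day, the RepB libraries were the shallower ones, and most RepB values of Sox1, Pax6, Lhx2 and Pax3 rest on few counts. The count of members lower in RepB (8) was 0 without a day term, 5 after thinning and 0 to 7 when a day was left out. That of the other neural genes (4) was 12 without a count filter, 0 without a day term and 1 to 7 when a day was left out. Over all genes, the RepB against WT count (346) was 592 without a filter, 222 after thinning, 0 without a day term and 38 to 744 when a day was left out. Against day 0, the RepB count of members (0) was 1 by DESeq2, 1 with DESeq2 size factors, 1 by limma-voom, 7 with shared day terms and 0 to 1 when a day was left out, and the WT count (0) was 1 by limma-voom, 5 with shared day terms and 0 to 1 when a day was left out. Over all genes these counts, 725 in RepB and 1524 in WT, were 1927 and 2769 by DESeq2, 1353 and 2839 by limma-voom, and 7208 and 8356 with shared day terms. When a day was left out they reached as low as 114 and 352. The slope counts over all genes (4663 and 4407) fell to as few as 2593 and 2360 when a day was left out. The median of the members' mean log2 RepB/WT (-1.32) was -0.92 with a pseudocount of 2. By the median over days instead of the geometric mean, 5 members in RepB and 3 in WT kept their rank by level per kb. The cause of these shifts was not tested, except that leaving out a day or thinning uses fewer counts.

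Single genes were recomputed for the members in the day 0, slope and allele tests, and for the named genes of the other neural lists in RepB against WT. Among these, no value that had passed changed sign, and the following had not passed. Against day 0 in RepB, Pax3 (-0.17) was 0.0087 by limma-voom and -0.85 to 0.13 when a day was left out, and Miat (0.16) was -0.46 by limma-voom, -0.45 with shared day terms and -1.02 to 0.42 when a day was left out. Against day 0 in WT, Ncan (0.11) was -0.30 by limma-voom, -0.57 with shared day terms and -0.27 to 0.40 when a day was left out, and Ptprz1 (0.47) was -0.10 with shared day terms and -0.13 to 0.75. The ranges when a day was left out were -0.14 to 0.72 for the WT slope of Sox1, and for the slope differences -1.29 to 0.015 for Sox1, -0.32 to 0.13 for Lhx2, -0.019 to 0.084 for Nes, -0.044 to 0.016 for Map2 (0.036 after thinning) and -0.49 to 0.00040 for Miat. For RepB against WT they were -0.21 to 0.20 for Hes1, -0.022 to 0.10 for Tubb2b (-0.026 after thinning), -0.18 to 0.15 for Msx1, -0.035 to 0.35 for Msx2 and -0.042 to 0.13 for Ets1. For the allele effect they were -0.55 to 0.019 for Nes, -0.43 to 0.21 for Ptprz1 (0.17 without a day term on the allele) and -0.055 to 0.96 for Ncan. The day term paired the lines by day. A block on replicate numbers could not be fitted, since each line had 1 library per day.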
